A study of Mus musculus with 8 samples.

Results

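The genes described here carry out MHC class I antigen presentation. They are the light chain B2m, the heavy chains H2-K1 and H2-D1, the peptide transporter subunits Tap1 and Tap2, the loading factor Tapbp (tapasin), the immunoproteasome subunits Psmb8, Psmb9 and Psmb10, and the transactivator Nlrc5. They were chosen by name, and their 10 rows were taken from the 57010 gene identifiers of a table of raw read counts. All 10 passed the filter on low counts that left 20457 genes for testing. Poly(A) RNA of whole mouse retina was sequenced in 8 libraries, each from 1 retina. WT P15 was wild-type C57BL/6J retina at postnatal day 15. rd10 P15, rd10 P18 and rd10 P21 were retinas at postnatal days 15, 18 and 21 from mice homozygous for rd10, a missense mutation of Pde6b, the rod phosphodiesterase subunit, that causes rod degeneration. Each group had 2 libraries, and the labels name no treatment. There was no WT retina at P18 or P21, so that age and genotype cannot be told apart in the comparisons of those ages with WT P15. WT and rd10 mice came from different suppliers, although the methods also speak of wild-type littermates. Since the mutation is missense, the Pde6b count does not check the labels.

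MHC class I molecules show peptides from proteins made inside a cell to CD8 T cells and natural killer cells. Proteasomes cut the peptides, TAP carries them into the endoplasmic reticulum, and tapasin holds an empty heavy chain with B2m next to TAP until a peptide is bound. Interferons raise nearly all of these genes at once through IRF1 and NLRC5, among others, and they swap the constitutive proteasome subunits Psmb5, Psmb6 and Psmb7 for Psmb8, Psmb9 and Psmb10 in new particles. Class I is low in healthy neural tissue, and microglia, the resident macrophages of the retina, can raise it.

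By GENCODE M21 (GRCm38), 7 of the genes lie in the MHC region of chromosome 17: Tapbp (ENSMUSG00000024308) at 33915899 to 33929292, H2-K1 (ENSMUSG00000061232) at 33996017 to 34000347, Psmb9 (ENSMUSG00000096727) at 34181987 to 34187764, Tap1 (ENSMUSG00000037321) at 34187553 to 34197225, Psmb8 (ENSMUSG00000024338) at 34197721 to 34201454, Tap2 (ENSMUSG00000024339) at 34203527 to 34216321 and H2-D1 (ENSMUSG00000073411) at 35262730 to 35267499. B2m (ENSMUSG00000060802) at 122147686 to 122153083 lies on chromosome 2. On chromosome 8 lie Nlrc5 (ENSMUSG00000074151) at 94434356 to 94527272 and Psmb10 (ENSMUSG00000031897) at 105935735 to 105938444. H2-K1, Psmb9 and Psmb10 are on the minus strand, the others on the plus strand.

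The promoter sequences are shown because interferon and NLRC5 act through short elements just upstream of these genes. RefSeq promoter windows of GRCm38.p6, from 250 bases before to 50 bases after a start site, were matched by symbol for 8 of the 10 genes, all but Tap2 and Nlrc5. The stretch upstream of H2-K1 lies on the minus strand at chr17:34000348-34000547, and the stretch upstream of B2m lies on the plus strand at chr2:122147487-122147685. Capitals mark motif matches: in H2-K1 these are, from left to right, kappaB, the IRF element and the X2 core, and in B2m the X2 core. The IRF element is read on the opposite strand here.
H2-K1: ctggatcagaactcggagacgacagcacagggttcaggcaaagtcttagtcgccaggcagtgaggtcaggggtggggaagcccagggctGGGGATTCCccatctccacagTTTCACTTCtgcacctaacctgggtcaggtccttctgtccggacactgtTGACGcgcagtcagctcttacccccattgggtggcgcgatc
B2m: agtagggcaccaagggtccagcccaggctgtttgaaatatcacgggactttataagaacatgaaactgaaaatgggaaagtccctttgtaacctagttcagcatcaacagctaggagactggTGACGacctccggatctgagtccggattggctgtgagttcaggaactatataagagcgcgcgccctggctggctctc

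The kappaB and IRF elements of the heavy chain genes are shown side by side because they are nearly the same in both. In H2-D1 they lie at chr17:35262923-35262952 on the plus strand, inside an annotated H2-D1 exon of GENCODE M21, and in H2-K1 at chr17:34000429-34000458 on the minus strand. These sites had 29 of 30 bases in common, and the whole windows had 176 of 240 bases in common when they were laid 60 bases apart without gaps.
H2-K1: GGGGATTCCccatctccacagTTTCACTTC
H2-D1: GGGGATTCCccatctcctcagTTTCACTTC

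Tap1 and Psmb9 are read in opposite directions from starts that are 225 bases apart on chromosome 17. Between them lay a Y box, 4 bases from the Psmb9 start and 222 bases from the Tap1 start, and an X2 core, 140 bases from the Psmb9 start and 86 bases from the Tap1 start. The Y box site lies at chr17:34187323-34187352 and the X2 site at chr17:34187458-34187486, both written on the plus strand and both inside an annotated Psmb9 exon. The Psmb8 site at chr17:34198088-34198116, on the plus strand in an annotated Psmb8 exon, held the only GAS match among the 8 genes.
Tap1 and Psmb9, Y box: ggctcggctttCCAATCAGcggctgcgcgc
Tap1 and Psmb9, X2 core: cccagagacaggTGACGacagagggtcct
Psmb8, GAS: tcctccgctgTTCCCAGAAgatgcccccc

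The motifs were searched as letters on both strands, with N for any base, and no match overlapped another. The IRF element GAANNGAAA, read by interferon regulatory factors, matched in H2-K1 and H2-D1, that is 2 of 8 genes, and in 7.52% of the 32851 windows of all genes. kappaB, GGGNNTTCC, read by NF-kappaB, matched in the same 2 genes and in 5.82% of all windows. The Y box CTGATTGG, read by NF-Y, matched in 4 of 8 genes (H2-K1, H2-D1, Tap1 and Psmb9) and in 4.1% of all windows, and the Tap1 and Psmb9 matches are the same site. The X2 core TGACG, read by CREB and ATF factors, matched in 5 of 8 genes (B2m in addition) and in 20.8% of all windows. B2m holds another X2 match, after its start. GAS, TTCNNNGAA, the interferon-gamma activated site, matched in Psmb8 alone, 1 of 8 genes, and in 8.3% of all windows. No match was found in the Tapbp and Psmb10 windows, which says only that these letters are not in them. The same holds for every gene without a match of a given motif, since elements with other spacing were not searched for. The B2m stretch above holds gaaactgaaa and ggaaagtccc, which resemble the IRF and kappaB letters with wider spacing and are not marked.

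**Figure D1:**
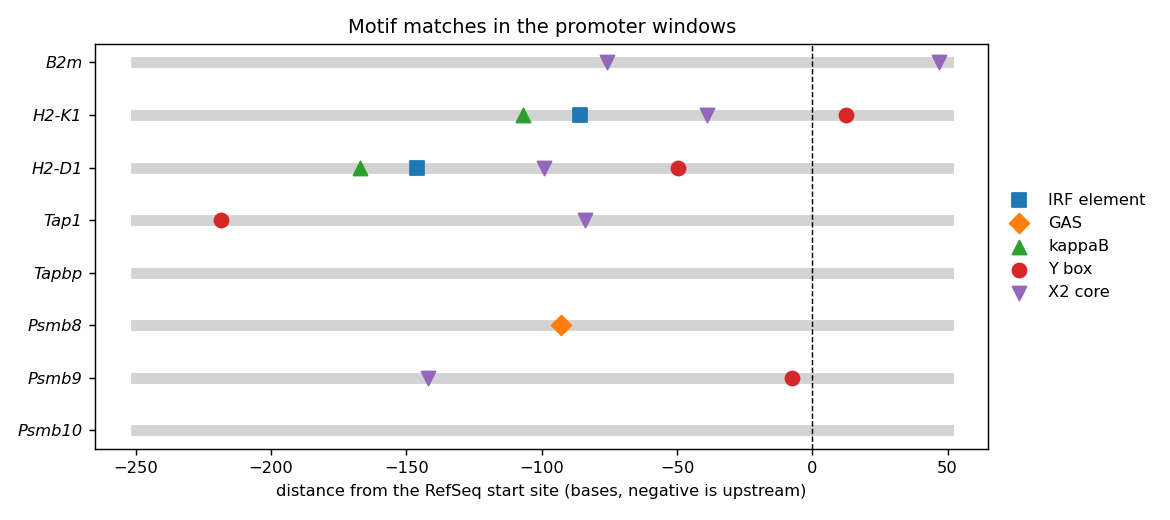
Motif matches in the promoter windows of 8 class I presentation genes. The x axis is the distance from the RefSeq start site in bases (negative is upstream, dashed line at the start), each grey bar is 1 window, and each marker is 1 match. H2-K1 and H2-D1 hold kappaB, the IRF element, the X2 core and the Y box in the same order, while Tapbp and Psmb10 hold no match.

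Total counts lay between 28076947 and 33724562 per library. The libraries also differed in sex, read from Xist and 4 Y-linked genes. Both WT P15 libraries and replicate 2 of rd10 P18 and of rd10 P21 had 3 to 19 Y-linked counts, whereas both rd10 P15 libraries and replicate 1 of rd10 P18 and of rd10 P21 had 5530 to 7193. In both older rd10 groups, replicate 1 was therefore male and replicate 2 female. The 2 libraries of rd10 P18 and of rd10 P21 therefore came from different animals. For WT P15 and rd10 P15 the labels do not say so, and the spread within these groups may be technical. Levels are given as CPM, counts per 1e+06 reads counted, with library sizes scaled by TMM factors. In bulk tissue, fewer cells of a type and less RNA per cell cannot be told apart.

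All 10 genes had higher CPM in both rd10 P18 libraries and in both rd10 P21 libraries than in either WT P15 library, yet edgeR called none of them, and the 2 libraries of an older rd10 group lay far apart. B2m, the light chain shared by all class I molecules, was at 18.5 and 19.4 CPM in WT retina, 18.6 and 18.2 in rd10 retina at P15, 279 and 117 at P18, and 355 and 80.8 at P21. The P15 libraries were alike, and every later rd10 library lay above them. The log2 fold change of B2m against WT P15 was 3.39 (SE 0.78, edgeR adjusted p = 0.107) at P18 and 3.53 (SE 0.78, adjusted p = 0.16) at P21.

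H2-K1, a classical heavy chain, was at 15.9 and 25.2 CPM in WT retina, 11.4 and 11.3 in rd10 retina at P15, 113 and 76.7 at P18, and 252 and 50.4 at P21. H2-D1, the other classical heavy chain, was at 57.4 and 63.2 CPM in WT retina, 46.7 and 46.8 in rd10 retina at P15, 286 and 138 at P18, and 432 and 117 at P21. Both heavy chains thus had their lowest values in rd10 P15 and their highest in replicate 1 of rd10 P21. Log2 fold changes against WT P15 were 2.21 for H2-K1 and 1.82 for H2-D1 at P18 (SE 0.74 and 0.64, edgeR adjusted p = 0.217 and 0.236), and 2.88 and 2.19 at P21 (SE 0.75 and 0.65, adjusted p = 0.22 and 0.277).

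Tap1, a subunit of the peptide transporter, was at 2.14 and 3.66 CPM in WT retina, 5.85 and 1.48 in rd10 retina at P15, 39.2 and 14.0 at P18, and 29.6 and 3.91 at P21. Its replicate 2 of rd10 P21 lay just above the WT libraries and below replicate 1 of rd10 P15. Tap2, the other transporter subunit, was at 6.95 and 10 CPM in WT retina, 8.78 and 5.18 in rd10 retina at P15, 51.2 and 21.9 at P18, and 32.5 and 13.9 at P21. Tapbp, which tethers empty class I molecules to TAP, had the smallest difference, with 39.6 and 34.4 CPM in WT retina, 51.6 and 37.0 in rd10 retina at P15, 65.2 and 79.7 at P18, and 77.4 and 54.3 at P21. Log2 fold changes at P18 against WT P15 were 3.19 for Tap1, 2.11 for Tap2 and 0.97 for Tapbp (SE 1.18, 0.56 and 0.23, edgeR adjusted p = 0.251, 0.125 and 0.0804). At P21 they were 2.53, 1.45 and 0.83 (SE 1.15, 0.55 and 0.23, adjusted p = 0.48, 0.375 and 0.182).

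Psmb8, the immunoproteasome subunit that replaces Psmb5, was at 2.4 and 1.91 CPM in WT retina, 1.88 and 1.3 in rd10 retina at P15, 36.9 and 13.2 at P18, and 19.4 and 6.53 at P21. Psmb9, which replaces Psmb6, was at 0.222 and 0.68 CPM in WT retina (6 and 21 counts), 0.445 and 1.13 in rd10 retina at P15, 15.2 and 3.4 at P18, and 10.2 and 1.54 at P21. Psmb10, which replaces Psmb7, was at 4.99 and 7.44 CPM in WT retina, 5.66 and 6.84 in rd10 retina at P15, 42.5 and 19.5 at P18, and 20.7 and 9.89 at P21. All 3 subunits had their highest value in replicate 1 of rd10 P18. Log2 fold changes against WT P15 at P18 were 3.54 for Psmb8, 4.34 for Psmb9 and 2.32 for Psmb10 (SE 0.68, 1.23 and 0.48, edgeR adjusted p = 0.0552, 0.143 and 0.0602). At P21 they were 2.59, 3.68 and 1.3 (SE 0.66, 1.21 and 0.47, adjusted p = 0.171, 0.3 and 0.328).

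Nlrc5, the transactivator of class I genes, had the largest fold changes of the 10 genes in both comparisons. It had 16 and 4 counts in WT P15 (0.591 and 0.129 CPM) and 2 and 8 counts in rd10 P15 (0.0636 and 0.282 CPM), against 700 and 535 counts in rd10 P18 (20.9 and 16.8 CPM) and 972 and 138 counts in rd10 P21 (27.7 and 4.82 CPM). The log2 fold change against WT P15 was 5.73 (SE 1.11, edgeR adjusted p = 0.0666) at P18 and 5.52 (SE 1.1, adjusted p = 0.118) at P21, and its size rests on few WT counts.

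**Figure D2:**
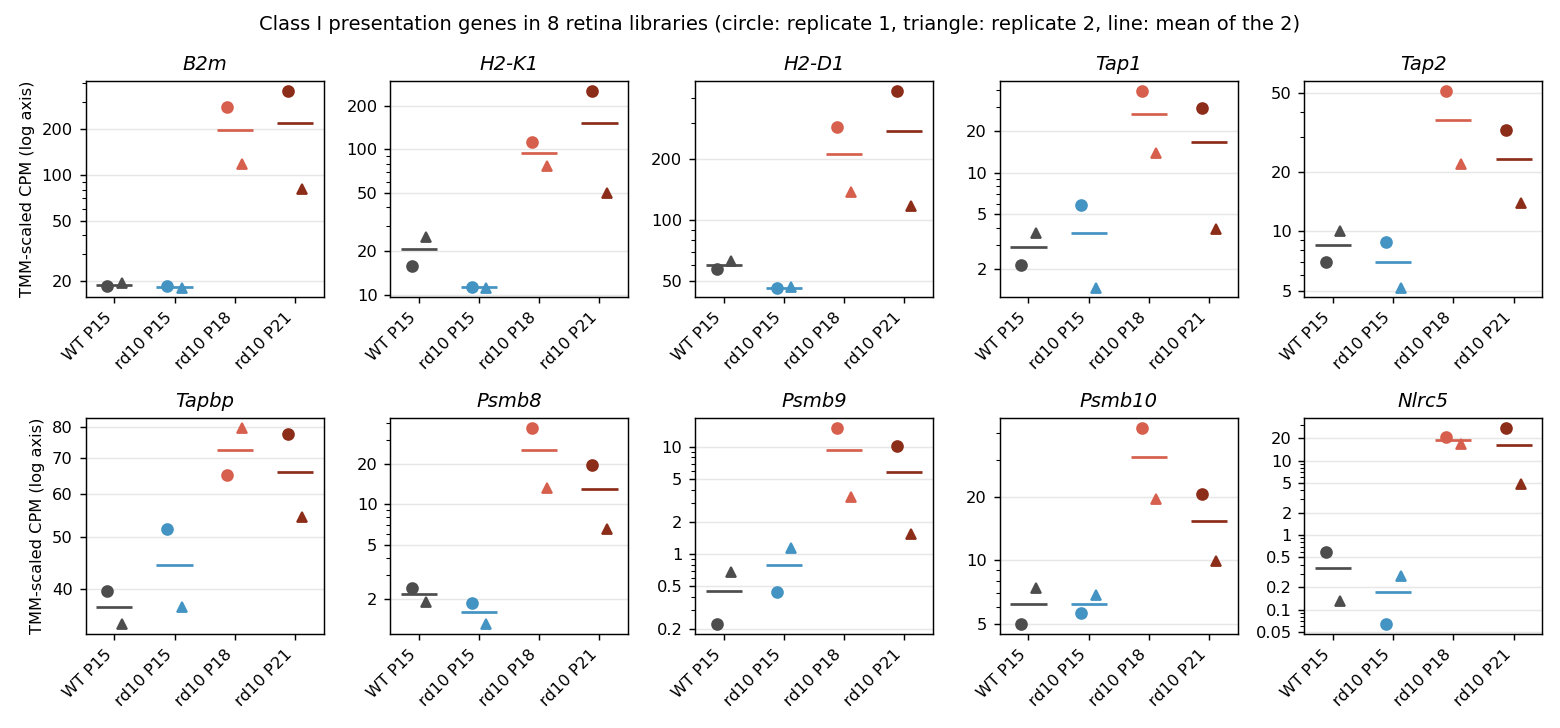
Levels of the 10 genes in every library. The y axis is TMM-scaled CPM on a log axis that differs between panels, circles are replicate 1, triangles replicate 2 and lines the mean of the 2 libraries. All rd10 P18 and P21 libraries lie above both WT P15 libraries in all 10 panels, and replicate 1 lies above replicate 2 in all panels at P21 and in all but Tapbp at P18.

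Calls needed an adjusted p below 0.05 together with a log2 fold change above 1 or below -1. For rd10 P18 against WT P15, edgeR called 0 of the 10 genes, where 1.48% of all genes tested were called, and all 10 had an unadjusted p under 0.05, as did 17.4% of all genes. DESeq2, the tool named in the methods of the study, called 6 of 10 (B2m, Tap2, Psmb8, Psmb9, Psmb10 and Nlrc5), where 4.58% of all genes were called, with DESeq2 adjusted p from 9.53e-08 for Psmb8 to 0.000563 for Tap2 among these. Both rd10 P18 libraries lay above both WT libraries for 10 of 10 genes, as they did for 24.1% of all genes tested. The median log2 fold change of the 10 genes was 2.76, against 0.01 over all genes. With 2 libraries against 2, an exact two-sided permutation test cannot go below p = 0.333, which is what each gene gave here. The edgeR count was 3 without rd10 P18 replicate 2, a fit that called 5.7% of all genes, and 6 without either rd10 P21 replicate 1 or rd10 P21 replicate 2, where 1.6% and 1.68% of all genes were called. Where a group is left with 1 library, that library is assumed to vary like those of the other groups.

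For rd10 P21 against WT P15, edgeR again called 0 of 10 genes, beside 0.386% of all genes, and 9 had an unadjusted p under 0.05, all but Tap1, beside 11.8% of all genes. DESeq2 called 6 of 10 (B2m, H2-K1, H2-D1, Psmb8, Psmb9 and Nlrc5), beside 2.76% of all genes. Both rd10 P21 libraries lay above both WT libraries for 10 of 10 genes and for 24.9% of all genes. The median log2 fold change was 2.56, against 0.0 over all genes. Without rd10 P21 replicate 2, the lower library, edgeR called 4 of 10 and 0.583% of all genes.

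For rd10 P15 against WT P15, the groups of the same age, the values of most genes overlapped. edgeR and DESeq2 called 0 of 10 genes each, beside 0.23% and 2.03% of all genes, and 0 had an unadjusted p under 0.05, beside 12.3% of all genes. Both rd10 P15 libraries lay above both WT libraries for 0 of 10 genes, beside 24.8% of all genes, and below them for 3 of 10 (H2-K1, H2-D1 and Psmb8), beside 24.9% of all genes. Log2 fold changes ran from -1.04 for Nlrc5 (SE 1.36, edgeR adjusted p = 0.836) to 0.77 for Psmb9 (SE 1.2, adjusted p = 0.867), with a median of -0.16. Both rd10 P15 libraries were male and both WT libraries female, so that sex and genotype cannot be told apart in that comparison.

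**Figure D3:**
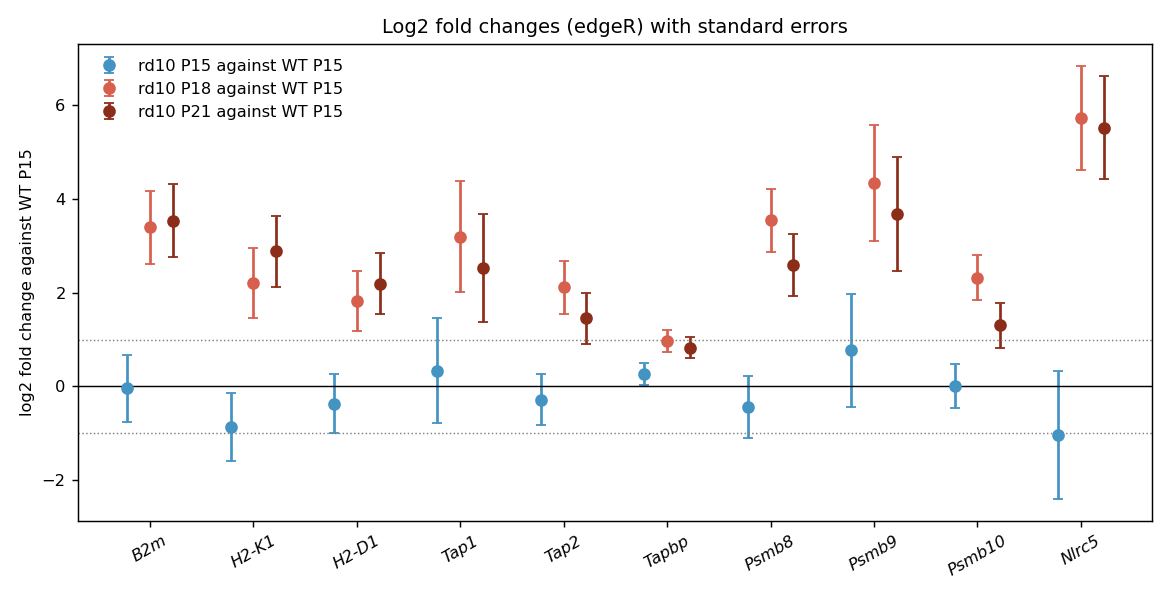
Log2 fold changes against WT P15 for the 10 genes. Points are edgeR estimates, bars are standard errors, and dotted lines mark the fold threshold of 1 on the log2 scale. At P15 the estimates lie between -1.04 and 0.77, and at P18 and P21 they lie between 0.83 for Tapbp and 5.73 for Nlrc5.

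The comparisons within rd10 retina share the older libraries with those against WT, and each is given with its own values. For rd10 P18 against rd10 P15, edgeR called 0 of 10 genes and 0.591% of all genes, 10 reached an unadjusted p below 0.05, as did 12.9% of all genes, and DESeq2 called 8 of 10, all but Tap1 and Tapbp, beside 2.8% of all genes. All 10 lay higher in both P18 libraries, beside 21.9% of all genes, with a median log2 fold change of 2.96. Psmb8 had a log2 fold change of 3.97 (SE 0.69, edgeR adjusted p = 0.0688) and Nlrc5 of 6.77 (SE 1.2, adjusted p = 0.0902). Without rd10 P18 replicate 2 the edgeR count was 3, beside 4.45% of all genes, and without either rd10 P21 library it was 5, beside 0.837% and 0.91%.

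For rd10 P21 against rd10 P15, edgeR called 0 of 10 genes and 0.401% of all genes, while 9 reached an unadjusted p below 0.05, beside 12.8% of all genes. By DESeq2, 7 of 10 genes were called (all but Tap1, Tapbp and Psmb10) and 2.6% of all genes. Of the 10 genes, 9 lay higher in both P21 libraries, all but Tap1, beside 26.0% of all genes, and the median log2 fold change was 2.73. The edgeR count was 4 without rd10 P21 replicate 2, beside 0.51% of all genes, and 1 without either rd10 P18 library, beside 0.991% and 0.984%.

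Between rd10 P21 and rd10 P18, no difference was detectable. edgeR and DESeq2 called 0 of 10 genes, beside 0.0196% and 0.628% of all genes, and 0 had an unadjusted p under 0.05, beside 10.8% of all genes. Values overlapped for all 10 genes. Log2 fold changes ran from -1.02 for Psmb10 (SE 0.46, edgeR adjusted p = 0.472) to 0.67 for H2-K1 (SE 0.7, adjusted p = 0.749), and the light and heavy chains B2m, H2-K1 and H2-D1 had positive estimates (0.14, 0.67 and 0.37) while the other 7 genes had negative ones.

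The 2 libraries of an older rd10 group stood further apart in these genes than in most others. The ratio of replicate 1 to replicate 2 had a median of 0.8 over the 10 genes in WT P15 and 1.01 in rd10 P15, but 2.26 in rd10 P18 and 4.04 in rd10 P21. It was over 2 for 7 of 10 genes in rd10 P18 and for 9 of 10 in rd10 P21, where 3.97% and 3.83% of all genes with a mean count of at least 50 in the group had such a ratio. At P18 it ran from 0.818 for Tapbp to 4.47 for Psmb9, and at P21 from 1.42 for Tapbp to 7.55 for Tap1. In both groups the higher library was the male one. The sole exception was Tapbp at P18. A fit with a term for sex called 3 of 10 genes at P18 and 1 of 10 at P21 against WT P15, beside 0.934% and 0.176% of all genes. The libraries of each P15 group were of the same sex. That term is therefore set by the gap between the 2 libraries of the older rd10 groups alone.

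Levels of the 10 genes followed one another closely. Over the 8 libraries, the 45 pairs of genes had Pearson correlations of log2 CPM between 0.76 (Tapbp and Psmb9) and 0.984 (H2-K1 and H2-D1), with a median of 0.908. These points share the 4 groups and the same libraries, so that the values describe the pattern and carry no test. Summed over the 10 genes, the libraries held 149 and 166 CPM in WT retina, 151 and 129 in rd10 retina at P15, 949 and 501 at P18, and 1256.2 and 343 at P21.

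Per kilobase of the principal transcript, the order of the levels was led by H2-D1 and B2m. In WT P15 H2-D1 was at 28.7 ± 1.95 CPM per kb (SD, n = 2) and B2m at 22 ± 0.777, followed by Tapbp at 12.8 ± 1.28 and H2-K1 at 12.7 ± 4.06, which do not differ beyond their spread. Psmb10 at 4.74 ± 1.32 and Tap2 at 2.47 ± 0.634 came next, then Psmb8 at 1.32 ± 0.214 and Tap1 at 0.982 ± 0.363, whose ranges overlap, and Psmb9 at 0.333 ± 0.239 and Nlrc5 at 0.0475 ± 0.0431 were lowest. In rd10 P18 B2m led at 230 ± 133 CPM per kb, H2-D1 followed at 101 ± 49.8 and H2-K1 at 58.6 ± 15.9, while Tapbp at 25.0 ± 3.55 and Psmb10 at 23.6 ± 12.4 did not differ beyond their spread. In rd10 P21 the first 3 kept that order, with B2m at 254 ± 226, H2-D1 at 130 ± 106 and H2-K1 at 93.2 ± 87.8. These spreads between libraries overlap, but the order was the same within replicate 1 (413, 205 and 155) and within replicate 2 (94.0, 55.6 and 31.1). Psmb8 at 15.4, Tap2 at 10.6, Tap1 at 9.0 and Psmb9 at 6.88 followed in rd10 P18. Nlrc5 had the lowest level in all 4 groups, at 2.49 ± 0.375 CPM per kb in rd10 P18 and 2.15 ± 2.14 in rd10 P21. In rd10 P15 the order was H2-D1 at 22.2 CPM per kb, B2m at 21.4, Tapbp at 15.3, H2-K1 at 7.01, Psmb10 at 4.77, Tap2 at 2.03, Tap1 at 1.24, Psmb8 at 0.977, Psmb9 at 0.582 and Nlrc5 at 0.0228. With the union of all exons as the length, B2m came before H2-D1 in rd10 P15, Tap2 before Psmb8 in rd10 P18 and P21, and Nlrc5 before Psmb9 in rd10 P21.

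The inducible subunits were next set against the constitutive subunits they replace, per kilobase in the same library. Psmb8 stood at 1.47% and 1.14% of Psmb5 in WT retina, 0.972% and 0.743% in rd10 retina at P15, 13.5% and 7.84% at P18, and 12.9% and 4.46% at P21. Psmb9 stood at 0.15% and 0.461% of Psmb6 in WT retina, 0.271% and 0.732% in rd10 retina at P15, 7.46% and 2.42% at P18, and 8.11% and 1.22% at P21. Psmb10 stood at 4.65% and 6.68% of Psmb7 in WT retina, 5.04% and 6.02% in rd10 retina at P15, 27.0% and 20.2% at P18, and 22.2% and 11.6% at P21. In all 3 pairs both P18 and both P21 libraries lay above all 4 P15 libraries, and the constitutive subunit was the more abundant transcript in all 8 libraries. The constitutive subunits themselves had log2 fold changes at P18 against WT P15 of 0.42 for Psmb5, 0.22 for Psmb6 and 0.22 for Psmb7 (SE 0.21, 0.17 and 0.21, edgeR adjusted p = 0.35, 0.558 and 0.644), and at P21 of -0.16, -0.23 and -0.29 (SE 0.21, 0.18 and 0.21, adjusted p = 0.864, 0.691 and 0.669).

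**Figure D4:**
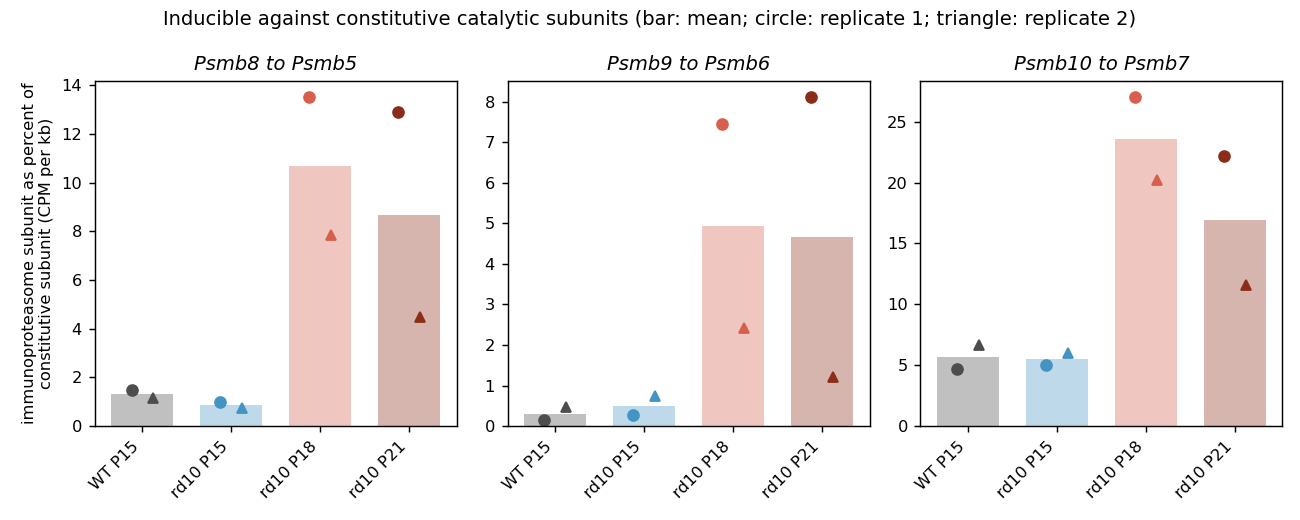
Immunoproteasome subunits as a percent of the constitutive subunit each replaces, in CPM per kb of the principal transcript. Bars are the mean of the 2 libraries of a group, circles are replicate 1 and triangles replicate 2. Psmb10 reaches 27.0% of Psmb7 and Psmb8 reaches 13.5% of Psmb5, both in replicate 1 of rd10 P18, and Psmb9 reaches 8.11% of Psmb6 in replicate 1 of rd10 P21.

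Of the 14 constitutive core subunits of the proteasome, 0 were called by edgeR or DESeq2 at P18 or at P21 against WT P15, and 3 at P18 and 0 at P21 had an unadjusted p under 0.05, beside 17.4% and 11.8% of all genes. Their median log2 fold changes were 0.28 and -0.2, with Psmb2 at 0.55 (SE 0.21, edgeR adjusted p = 0.231), Psmb1 at 0.53 (SE 0.23, adjusted p = 0.28) and Psma4 at 0.47 (SE 0.24, adjusted p = 0.356) at P18. Of the 8 activators and assembly factors, edgeR called 0 in either comparison, beside 1.48% and 0.386% of all genes. Of these 8, 2 and 0 had an unadjusted p under 0.05, and DESeq2 called 2 and 0, beside 4.58% and 2.76% of all genes. The PA28 activator subunits Psme1 and Psme2, which interferon also raises, were at 1.34 (SE 0.36, adjusted p = 0.114) and 1.78 (SE 0.55, adjusted p = 0.166) at P18 and at 0.78 and 0.64 at P21 (adjusted p = 0.447 and 0.731). Psmf1, a proteasome inhibitor, was at -0.59 (SE 0.35, adjusted p = 0.438) at P18.

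Among 11 other factors of peptide trimming and loading, Hspa5 (BiP), a chaperone of the endoplasmic reticulum, was the only gene called by edgeR at P18 against WT P15, and 0 were called at P21. Of all genes, edgeR called 1.48% and 0.386% in these comparisons. Hspa5 was at 276 and 232 CPM in WT retina, 392 and 306 in rd10 retina at P15, 653 and 567 at P18, and 357 and 329 at P21, and it rose 2.4-fold at P18 (log2 fold change 1.26, SE 0.17, edgeR adjusted p = 0.0177). That call was lost without either WT P15 library, at edgeR adjusted p = 0.105 and 0.104, and with only the 4 libraries compared, at 0.0599. DESeq2 called 3 and 0 of the 11 genes at P18 and P21, beside 4.58% and 2.76% of all genes. Of the 11 genes, 7 and 3 had an unadjusted p under 0.05, beside 17.4% and 11.8% of all genes. Tapbpl, a tapasin-related editor named here after its values were seen, was the only gene of this list called between rd10 P18 and rd10 P15, with a log2 fold change of 1.63 (SE 0.27, edgeR adjusted p = 0.0485). In that comparison edgeR called 0.591% of all genes.

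Of 16 other class I heavy chains and class I-like genes, 12 passed the filter on low counts. Against WT P15, edgeR called 0 of 12 at P18 and 0 at P21, beside 1.48% and 0.386% of all genes. At each age 8 had an unadjusted p under 0.05, beside 17.4% of all genes at P18 and 11.8% at P21. DESeq2 called 4 at each age, beside 4.58% and 2.76% of all genes. Their median log2 fold changes were 2.28 and 2.14. H2-Q4, a nonclassical chain, was at 3.29 and 6.05 CPM in WT retina, 1.24 and 1.83 in rd10 retina at P15, 75.0 and 35.5 at P18, and 105 and 21.4 at P21. Its log2 fold changes were 3.56 (SE 0.87, edgeR adjusted p = 0.121) and 3.75 (SE 0.87, adjusted p = 0.172). H2-Q6 had 0 counts in both WT libraries and 424 and 202 in rd10 P18, at least 202-fold higher if the 2 WT libraries together are set to a floor of 3 counts, and 1111 and 108 in rd10 P21, at least 400.0-fold higher. H2-Q6 and H2-Q7 share transcript sequence, with 13% and 12% of their 100-base windows found in another gene's transcripts, and H2-Q7 had nearly the same levels as H2-Q6 in these libraries (12.3, 6.74, 30.4 and 3.91 CPM in rd10 P18 and P21), so that the reads of each are uncertain.

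**Figure D5:**
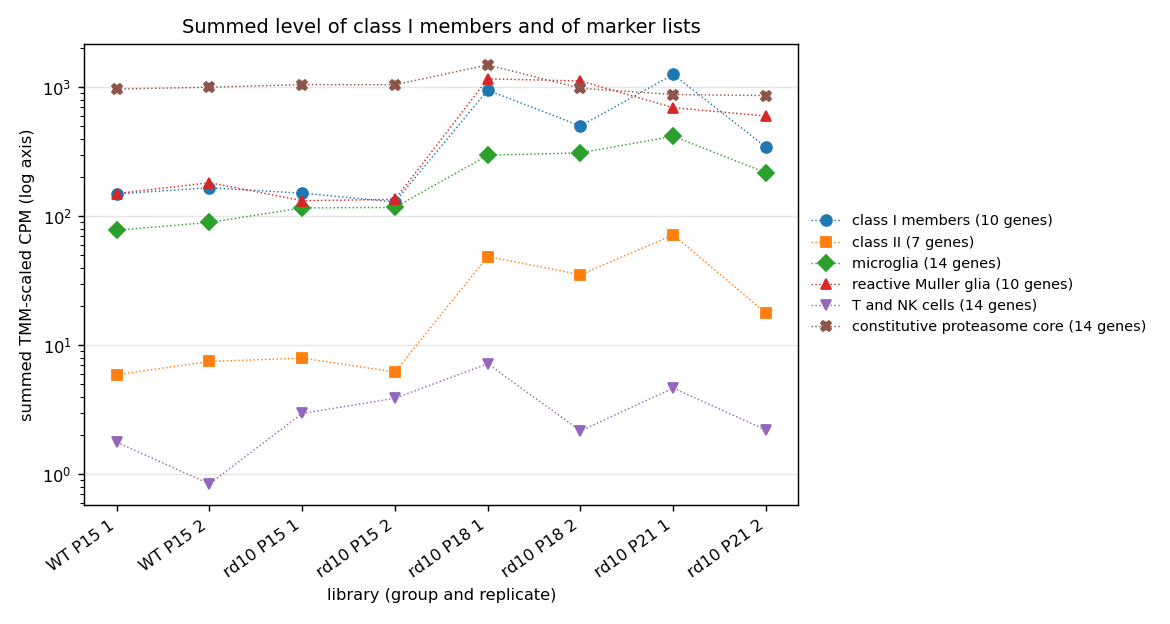
Summed levels of the class I genes and of 5 other lists in each library. The y axis is the sum of TMM-scaled CPM over the list on a log axis, and the x axis gives group and replicate. The class I sum is 129 to 166 CPM in the P15 libraries and 343 to 1256.2 in the older rd10 libraries. The T and NK cell sum is low throughout, at 0.841 and 1.77 in WT P15 and from 2.17 to 7.18 in the rd10 libraries.

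Regulators of class I were described with a list of 23 genes. At P18 against WT P15 edgeR called Irf1 and Irf8, both higher, and at P21 it called 0, beside 1.48% and 0.386% of all genes. An unadjusted p under 0.05 was found for 8 and 5 genes, beside 17.4% and 11.8% of all genes. DESeq2 called 4 and 3, beside 4.58% and 2.76% of all genes. Irf1, the interferon regulatory factor that acts on Tap1 and Psmb9, was at 4.32 and 3.72 CPM in WT retina, 2.8 and 2.89 in rd10 retina at P15, 45.5 and 16.1 at P18, and 19.8 and 11.5 at P21. It rose 7.65-fold at P18 (log2 fold change 2.94, SE 0.5, edgeR adjusted p = 0.0348). Irf8, a factor of microglia and other myeloid cells, was at 2.99 and 2.72 CPM in WT retina, 2.61 and 1.97 in rd10 retina at P15, 19.9 and 11.3 at P18, and 15.5 and 7.79 at P21, and it rose 5.45-fold at P18 (log2 fold change 2.45, SE 0.42, adjusted p = 0.033). Irf1 lost the call when any of the 4 P15 libraries was left out and Irf8 when any of these or rd10 P18 replicate 1 was, with edgeR adjusted p up to 0.234 and 0.21. With only the 4 libraries compared, the adjusted p was 0.0866 for Irf1 and 0.0591 for Irf8.

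Interferon ligands were near or below detection. Ifng had 12 counts in replicate 1 of rd10 P18 and 0 counts in the other 7 libraries, and Ifnb1 had 16 counts in that library, 12 in replicate 1 of rd10 P21 and 0 elsewhere. Tnf had 114 counts in replicate 1 of rd10 P18 and 4 in replicate 2, 5 in replicate 2 of rd10 P15 and 0 in the other 5 libraries. Ifna4, Ifna2, Ifnl2 and Ifnl3 had 0 counts in all libraries. edgeR could test 1 of the 7 ligands, Ifnb1, and called it in neither comparison with WT P15, nor did DESeq2, with 0 at an unadjusted p under 0.05. The libraries with interferon counts were the male ones of P18 and P21, in which most class I genes were also higher.

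Receptors of class I were mostly without counts: 8 of 15 genes had 0 counts in all libraries, and 3 passed the filter. Cd8a had 11 and 0 counts in WT retina, 89 and 94 in rd10 retina at P15, 79 and 37 at P18, and 54 and 23 at P21, while Cd8b1, which pairs with it on cytotoxic T cells, had 0 in all 8 libraries. edgeR called 0 of the 3 genes in either comparison, with 2 and 1 at an unadjusted p under 0.05 and 2 and 1 called by DESeq2. Of all genes, 17.4% and 11.8% had such a p at P18 and P21, and DESeq2 called 4.58% and 2.76%. The DESeq2 calls for P18 were Cd8a (adjusted p = 0.0361) and Lilrb3 (0.0112), and the sole call for P21 was Lilrb3 (0.0377). Lilrb3 had 0 counts in both WT libraries and 2 and 0 in rd10 retina at P15. Later counts were 41 and 27 (P18) and 43 and 4 (P21). Its edgeR log2 fold changes over WT were 8.0 (SE 2.3) and 7.41 (SE 2.3), and their size rests on the 0 counts in WT. Of 7 class II genes, which present peptides taken up from outside, edgeR called H2-Ab1 at P18 and 0 at P21. At P18 and P21, 6 and 5 of them had an unadjusted p under 0.05 and DESeq2 called 4 each time, beside the same shares of all genes. H2-Ab1 was at 0.369 and 0.55 CPM in WT retina, 0.604 and 0.74 in rd10 retina at P15, 7.3 and 7.94 at P18, and 11.6 and 2.2 at P21, and it rose 16.4-fold at P18 (log2 fold change 4.03, SE 0.76, edgeR adjusted p = 0.0405). That call was lost when any of the 4 P15 libraries or rd10 P18 replicate 1 was left out, with edgeR adjusted p up to 0.289, and it was also lost with a term for sex, at 0.061, and with the replicate block, at 0.0631.

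The genes whose pattern over the 8 libraries was most like the mean of the 10 class I genes were Parp12, Ifit1, Irgm2, Tor3a and Oas1g. Ifit1, Irgm2 and Oas1g are well-known interferon-induced genes, and Parp12 and Tor3a also respond to interferon. Their Pearson correlations with that mean were 0.995, 0.995, 0.994, 0.993 and 0.993, among 15120 genes with a mean count of at least 50. Ifit1 was at 1.63 and 1.16 CPM in WT retina, 0.891 and 1.34 in rd10 retina at P15, 118 and 33.9 at P18, and 123 and 9.19 at P21. Replicate 1 lay above replicate 2 at both older ages for all 5 genes, as in Parp12, whose P18 libraries stood at 63.4 and 33.5 CPM and whose P21 libraries stood at 56.3 and 20.4 CPM. H2-T23 stood at rank 8 and Irf8 at rank 16, named here after their values were seen.

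Lists of cell markers were read beside these results. The 14 microglia markers summed to 77.8 and 89.6 CPM in WT retina, 116 and 117 in rd10 retina at P15, 297 and 310 at P18, and 417 and 217 at P21, and edgeR called 5 of 14 at P18 and 4 of 14 at P21 against WT P15, all higher, beside 1.48% and 0.386% of all genes. In rd10 P18 the microglia sums of the 2 libraries were close, at a ratio of 0.958, whereas the class I sums were at a ratio of 1.89. The ratio at P18 was also high for red blood cell markers, at 2.82 (160 and 56.7 CPM), and for the constitutive proteasome core, at 1.52. For T and NK cell markers it was 3.31, but their sums were only 7.18 and 2.17 CPM, with most of the genes at few or 0 counts. In rd10 P21 the ratios were 1.92 for microglia markers, 3.66 for the class I genes, 2.11 for T and NK cell markers, 0.94 for red blood cell markers and 1.02 for the proteasome core. The 10 reactive Muller glia markers summed to 150 to 182 CPM in WT retina, 132 to 135 in rd10 retina at P15, 1118.7 to 1161.5 at P18 and 598 to 695 at P21, with 8 and 6 of 10 called. Monocyte and macrophage markers (9 genes) ranged in sum from 22.1 to 22.6 CPM in WT retina, from 23.1 to 28.6 in rd10 retina at P15, from 63.9 to 68.4 at P18 and by P21 from 38.9 to 66.1, with 1 and 0 of 8 tested called by edgeR, 5 and 3 by DESeq2, and 6 and 5 at an unadjusted p under 0.05. Of all genes, DESeq2 called 4.58% and 2.76% in these comparisons, and 17.4% and 11.8% had an unadjusted p under 0.05. Lyve1 made up a large share of the monocyte and macrophage sum, at 14.7 to 23.9 CPM in all libraries. Lyz2 was at 3.66 and 7.9 CPM in WT retina and 33.8 and 39.6 at P18. Ccr2, Ly6c2 and Plac8, named here after their values were seen, had at most 8 counts in a WT library. Their P18 counts were 84 and 85, 162 and 64, and 206 and 32. By P21, replicate 1 held 81, 230 and 66 counts of these genes, and replicate 2 held 3, 0 and 0. Mrc1 (4 and 58 counts) and Cd163 (0 and 8) went the other way by P21. In the median, the 8 tested genes stood at a log2 fold change of 6.54 (P18) and 5.26 (P21) over WT, from few WT counts.

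The 14 T and NK cell markers summed to 1.77 and 0.841 CPM in WT retina, 2.96 and 3.88 in rd10 retina at P15, 7.18 and 2.17 at P18, and 4.65 and 2.2 at P21. Cd3e, a T cell receptor component, and Cd8b1 were at 0 in all libraries. The cytotoxic cell genes Gzmb, Nkg7, Ncr1, Gzma and Prf1 had 24, 15, 12, 10 and 6 counts in replicate 1 of rd10 P18 and 0 in replicate 2. Cd4 of the same list went the other way, with 4 counts in replicate 1 and 21 in replicate 2, and Klrb1c had 0 in both. Gzma also had 5 counts in replicate 1 of WT P15. The 7 neutrophil markers summed to 0.0 CPM in WT P15 and at most 2.12 in any library, with Ly6g, Mpo, Elane and Retnlg at 0. S100a8, S100a9 and Cxcr2 had 51, 14 and 6 counts in replicate 1 of rd10 P18, where most class I genes were also higher, and 0 in replicate 2. B cell markers summed to 0.571 to 1.92 CPM and dendritic cell markers to 11.9 to 18.3 CPM over all 8 libraries. Most of the dendritic cell sum came from Zbtb46, at 6.83 to 13.1 CPM, and Flt3, at 1.76 to 5.63 CPM. Itgax of this list, named here after its values were seen, had 0 counts in every P15 library. Its P18 counts were 86 and 44, at least 41.9-fold above WT with the floor of 3 counts. By P21, replicate 1 held 146 Itgax counts and replicate 2 held 0, at least 47.9-fold above WT. The paper also counts Itgax among the signature genes of disease-associated microglia. Markers of the retinal pigment epithelium, a neighbouring tissue, summed to 31.7 and 103 CPM in WT retina, 144 and 175 in rd10 retina at P15, 29.6 and 15.9 at P18, and 23.8 and 24.7 at P21. The 10 rod markers, which mark the tissue as retina, summed to 45257.8 to 55817.8 CPM in WT retina, 33437.7 to 35733.7 in rd10 retina at P15, 28845.7 to 29391.7 at P18 and 21471.2 to 28086.0 at P21. The part of any of these cell types in the class I values was not tested.

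Several of the 10 genes share exon sequence with a neighbour in GENCODE M21. Tap1 and Psmb9 overlap by 212 bases on opposite strands, Psmb8 overlaps Gm20496 by 498 bases, Tap2 overlaps Gm15821 by 533 and Gm20496 by 165, Tapbp overlaps Gm19412 by 904 and, on the same strand, Zbtb22 by 149, and Nlrc5 overlaps 9330175E14Rik by 78. No use of strand in the counting is stated, so reads from these stretches cannot be told apart. B2m, Psmb10 and Nlrc5 had 0.0% of their 100-base transcript windows in another gene's transcripts, H2-K1 had 0.957% and H2-D1 3.59%, and Tapbp had the highest share of the 10, at 14.8%.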

How the data were processed

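Whole-retina poly(A) RNA was sequenced by the authors in 8 libraries. Their deposited table holds raw read counts per Ensembl gene identifier, whole numbers without normalization. The processing notes name HISAT2 for alignment. For the counting tool, genome build and annotation, nothing is stated in the labels or methods. Symbols, positions and lengths were taken from GENCODE M21 (GRCm38), promoter windows from RefSeq (GRCm38.p6). All columns were used.

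edgeR 4.0.16 (with limma 3.58.1 under R 4.3.3) was run on the counts. filterByExpr kept genes (minimum count 10, minimum total count 15), TMM scaled libraries, and the robust quasi-likelihood model was fitted to all 8 libraries without a block. The standard error is the log2 fold change divided by the square root of F. P-values were adjusted by Benjamini-Hochberg over 20457 genes. CPM were computed from the counts, and log2 CPM with a prior count of 2. Sex was read from Xist and Y-linked genes. The thresholds for a call are those of the study. Alternatives were DESeq2 1.42.0, library size alone or RLE factors in place of TMM, leaving out the filter, a fit to just the 4 libraries compared, the replicate number as a block, a term for sex, no fold threshold, and each library left out. The fits were tested on simulated data. A floor of 3 counts over a group gives lower bounds for folds and covers counting error only. Figures were drawn with matplotlib 3.10.9.

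The text names the 10 members in all comparisons, the genes of the other pathway lists called against WT P15 and, where none was called, the 3 with the largest absolute log2 fold change at P18 or P21 and a mean count of at least 50, Psmb5, Psmb6 and Psmb7, and the 5 genes of most similar pattern. For the ligands and receptors no tested gene met that rule, and those named were chosen after their values were seen. Members and lists were chosen with earlier results of these data known.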

Additional observations from a re-analysis of the deposited data

How the results depend on the processing

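The count of class I genes called by edgeR depended on the setting. For rd10 P18 against WT P15 it was 0, and it was 6 with DESeq2, 2 with library size only, 2 with only the 4 libraries compared, 3 with a term for sex and 0 to 6 when 1 library was left out. For rd10 P21 against WT P15 it was 0, and 6 with DESeq2, 1 with a term for sex and 0 to 4 when 1 library was left out. For rd10 P18 against rd10 P15 it was 0, and 8 with DESeq2, 2 with only the 4 libraries compared, 8 with a term for sex and 0 to 5 when 1 library was left out. For rd10 P21 against rd10 P15 it was 0, and 7 with DESeq2, 6 with a term for sex and 0 to 4 when 1 library was left out. For rd10 P15 against WT P15 and rd10 P21 against rd10 P18 it was 0 in all settings. Of all genes, 4.58% (DESeq2), 1.81% (library size only), 0.748% (only the 4 libraries compared) and 0.934% (term for sex) were called for rd10 P18 against WT P15. For rd10 P21 against WT P15 these shares were 2.76% (DESeq2) and 0.176% (term for sex). They were 2.8%, 0.39% (only the 4 libraries compared) and 1.34% (term for sex) for rd10 P18 against rd10 P15, and 2.6% and 0.763% for rd10 P21 against rd10 P15. The cause of the differences between settings was not tested. The term for sex is set only by the gap between replicates 1 and 2 of rd10 P18 and of rd10 P21, since each P15 group was of the same sex throughout. The fit carries that gap over to the P15 groups. Its counts, and the directions it gives at P15, cannot be told apart from the gap. Replicate numbers do not pair the libraries (correlations of same-numbered deviations from -0.0245 to 0.0594). The fit with the replicate block called 1 gene each for rd10 P18 against WT P15, rd10 P18 against rd10 P15 and rd10 P21 against rd10 P15. Beside these, 1.13%, 0.577% and 0.323% of all genes were called. For the other comparisons the block fit called 0 of the 10 genes.

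Directions at P18 and P21 against WT P15 did not reverse in any of 150 values per comparison, the 10 genes under each setting. Both older rd10 libraries lay above both WT libraries for all 10 genes, so leaving out 1 library could hardly reverse a direction. The other settings reused the same counts, so that these values are a weak check of the direction. For rd10 P15 against WT P15, 14 of 149 values reversed, in 7 genes: B2m with library size only (0.0025), Tap1, Psmb9 and Psmb10 with a term for sex (-1.84, -1.67 and -1.09), Tap1 and Psmb10 under the replicate block (-0.23 and -0.013), and others when 1 library was left out, over ranges of -0.97 to 1.01 for Tap1, -0.71 to 0.047 for Tap2, -0.00059 to 0.48 for Tapbp, -0.034 to 1.8 for Psmb9, -0.25 to 0.32 for Psmb10 and -2.4 to 0.37 for Nlrc5. Over all genes, DESeq2 called 421, 950 and 573 at P15, P18 and P21 against WT P15, where edgeR called 47, 303 and 79. For rd10 P18 against rd10 P15, rd10 P21 against rd10 P15 and rd10 P21 against rd10 P18 these counts were 596, 526 and 120 with DESeq2 and 121, 82 and 4 with edgeR. Leaving out 1 library moved the edgeR counts between 6 and 246 at P15, 39 and 1250 at P18 and 4 and 210 at P21 against WT P15, and between 16 and 977, 10 and 217, and 3 and 963 in the other 3. The 1250, 977 and 963 calls were those without rd10 P18 replicate 2. Library size only moved the median of all genes by up to 0.124 on the log2 scale, for rd10 P18 against WT P15. Psmb9 and Nlrc5 rest on 4 to 21 counts per WT library, which limits the precision of their folds.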
